A study of Mus musculus with 8 samples.

Results

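The genes described here encode parts of the neuronal cytoskeleton and its regulators: the stathmins Stmn1, Stmn2, Stmn3 and Stmn4, the tubulin Tubb3, the microtubule-associated proteins Map1b and Mapt, the growth cone protein Gap43, and the neurofilament subunits Nefl and Nefm. These 10 genes of 23370 in the deposited table were taken by name. Each matched by its symbol except Map1b, which the table lists under the older name Mtap1b and which was matched by its RefSeq accession. The set was chosen because Stmn2 was among the largest falls in knockout against control cells in these libraries, so every comparison that uses control or knockout libraries is given below as a description without a test.

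RNA of cultured mouse embryonic fibroblasts (MEF cells, strain C57BL/6) was sequenced in 8 libraries, 2 for each of 4 groups. Control cells are Taf4 loxp/-, with 1 floxed and 1 null allele of Taf4, which encodes a component of TFIID, the factor that nucleates RNA polymerase II at promoters; in a further field the labels name them wild type. Knockout cells are Taf4 -/-. The remaining groups are Taf4 -/- cells with a stably expressed human transgene. In wild-type rescue (hTAF4 wt) this is the whole protein, and its 2 clones are called full-length clones here. In TAFH-deleted rescue (hTAF4 Δ) it lacks the TAFH domain, a conserved region, and the 2 clones are called deletion clones. By these labels, all but the control cells share the loss of mouse Taf4. The labels give neither the promoter of the transgene nor whether clones of a form, or the libraries of the control and knockout groups, arose separately, so the form of TAF4 and the history of its clones cannot be told apart.

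Microtubules are hollow polymers of alpha- and beta-tubulin that grow and shrink at their ends. Stathmins bind free tubulin dimers and promote the shrinkage of microtubules, whereas microtubule-associated proteins such as MAP1B and tau, the product of Mapt, bind along the polymer. In neurons these proteins shape the growing axon, GAP-43 sits under the membrane of its growth cone, and neurofilaments fill the mature axon. Stathmin 1 is found in many dividing cells, while SCG10 (Stmn2), SCLIP (Stmn3) and RB3 (Stmn4) are known mainly from neurons.

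Implied totals ranged from 14.3 to 17.3 per library in units of 1000000 fragments. In genes with 2 to 7 fragments per pair, control libraries 1 and 2 differed by less than sampling noise. Their chi-square per gene was 0.721 ± 0.0306 (SE, 1036 genes), where independent reads give 1, and the knockout libraries were as close, at 0.569 ± 0.0283 (SE, 879 genes). Values under 1 mean closer agreement than independent reads give, and genes with more fragments per pair were not examined this way. The mean of each pair therefore enters as 1 sample of 6 in all, and control and knockout carry no replicate error. The full-length clones differed from each other at least 2-fold in 44 of the 12040 genes tested (0.365%) and the deletion clones in 928 (7.71%), so values of the latter are given clone by clone. Mouse Taf4 was listed between 11.1 and 11.5 FPKM (fragments per kilobase of transcript, on a scale that divides by sequencing depth) in control, between 12.4 and 12.5 FPKM in the libraries labelled knockout, at 14.5 and 15.03 FPKM in the full-length clones, and at 14.7 and 19.2 FPKM in the deletion clones, highest in clone 2. Which exons the deletion removed is not given, so the genotype labels have no check in these values. Of 8 fibroblast markers 7 were between 34.5 and 131 FPKM in every library, while Thy1 was at or under 0.0773 FPKM. Of 15 neuron markers 13 were under 1 FPKM in every library, Snap25 and Gad1 among them at 0 throughout. The summed level of the neuron markers was between 8.49 and 8.87 FPKM in control, 8.31 and 8.41 in knockout, 11.1 and 11.5 in the full-length clones, and 6.96 and 7.78 in the deletion clones, and most of it was Stx1a.

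The members that carry the largest difference and its closest relatives are paralogs, so the stretch of coding sequence in which they are most alike is shown. It is the ungapped stretch of 90 bases of Stmn2 with the highest summed identity to the other stathmins, 5′ to 3′, in GENCODE M21 transcripts (GRCm38) that carry the RefSeq accessions of the table. Capitals mark bases that differ from Stmn2.
Stmn2: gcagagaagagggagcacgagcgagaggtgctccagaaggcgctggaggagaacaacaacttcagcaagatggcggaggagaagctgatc
Stmn1: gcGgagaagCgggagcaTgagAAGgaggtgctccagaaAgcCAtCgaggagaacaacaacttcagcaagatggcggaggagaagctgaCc
Stmn3: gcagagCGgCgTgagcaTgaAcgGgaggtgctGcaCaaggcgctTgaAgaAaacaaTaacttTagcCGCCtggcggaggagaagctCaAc
Stmn4: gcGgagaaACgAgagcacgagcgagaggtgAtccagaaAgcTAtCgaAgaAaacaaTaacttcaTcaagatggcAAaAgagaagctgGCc
Stmn1 differed from Stmn2 at 11 of these 90 bases, Stmn4 at 18 and Stmn3 at 20. The longest run that the whole Stmn2 transcript shares with another stathmin transcript was 43 bases, with Stmn1. No window of 50 bases of the Stmn2, Stmn3, Stmn4, Tubb3, Map1b, Mapt or Gap43 transcript occurred in a transcript of another gene. In Stmn1, 369 of 1011 such windows (36.5%) did, 351 of them in Gm11223, so the FPKM of Stmn1 is uncertain. Nefl shared 31.8% of its windows, all with an annotated transcript of Nefm. Gapdh, a gene that cultured cells express at high levels, had 82.5% of its windows in other genes and was listed between 0.0682 and 0.599 FPKM, so a low listed value need not mean a low transcript level.

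Stmn2 was abundant in control cells and nearly undetected everywhere else, with neither form of TAF4 bringing it near the control level. Stmn2 (chromosome 3, 8509527 to 8561604, mm9) encodes a membrane-anchored stathmin of growth cones. It was at 57.1 and 56.6 FPKM in the control libraries and at 0.0397 and 0.159 FPKM in the knockout libraries. The full-length clones stood at 0.138 and 0.0348 FPKM and the deletion clones at 0.165 and 0.616 FPKM. Both control libraries lay far above all 6 others, and the highest of those was deletion clone 2. In fragments, the control values rest on 1675 and 1664, the knockout values on 1 and 4, the full-length values on 4 and 1, and the deletion values on 4 and 17. The control mean was 572-fold the knockout mean, and the mean of the full-length clones was 0.152% of control. Deletion clone 1 stood at 0.290% of control and clone 2 at 1.08%. In bulk RNA, fewer cells that express a gene and less RNA per cell cannot be told apart. Over both strands, fragments per possible start position of Stmn2 came to 49.3% and 48.9% in control, and the fullest gene of each library came to between 103% and 106%. Whether a ceiling of 1 read per position lowers the control value of Stmn2 was not tested.

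**Figure D1:**
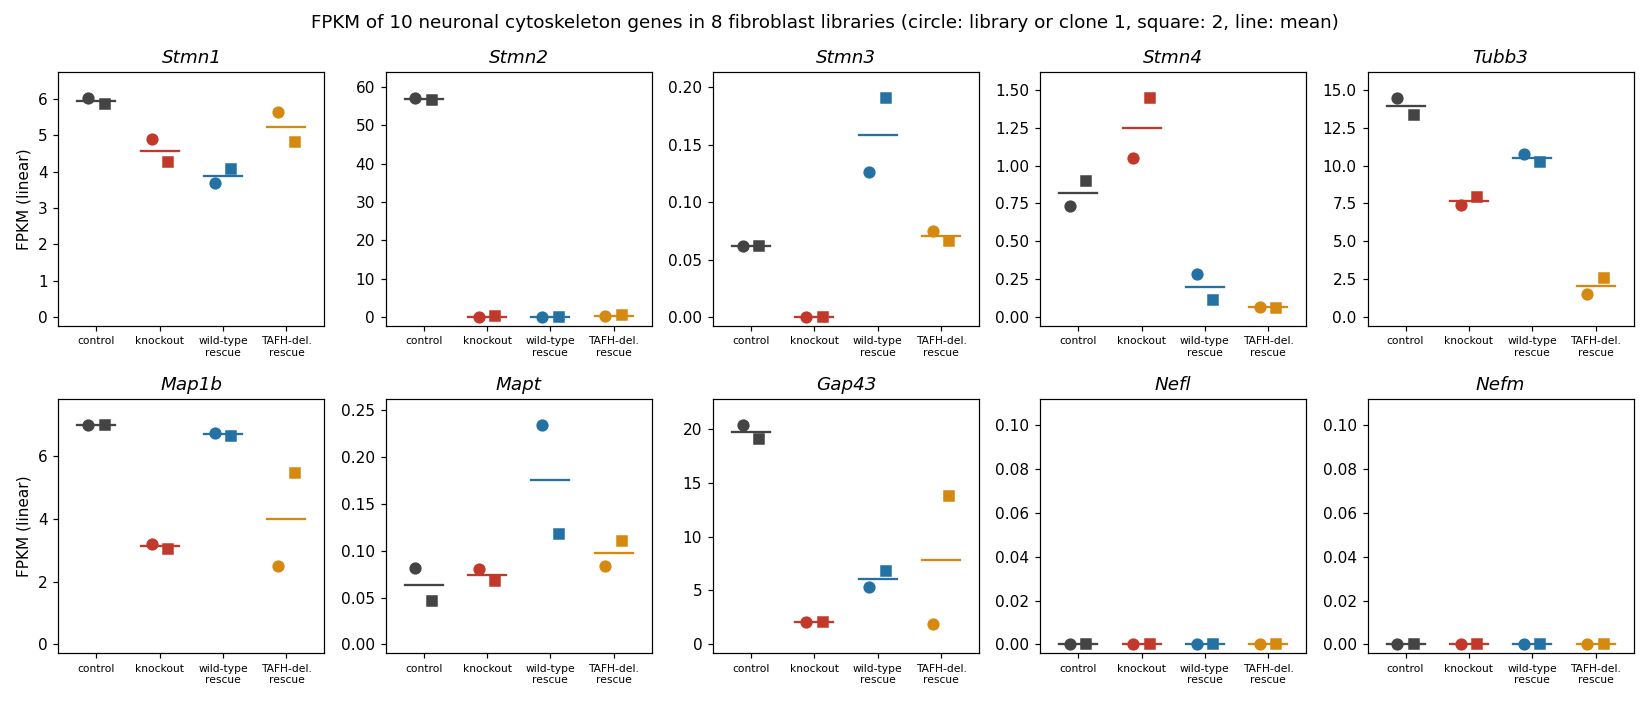
FPKM (linear axis from 0, a scale of its own in each panel) of the 10 genes in the 8 libraries; circles are library or clone 1, squares library or clone 2, and lines the group mean. Stmn2 is at 57.1 and 56.6 FPKM in control and at most 0.616 FPKM elsewhere, while Gap43 and Map1b separate the deletion clones.

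The remaining stathmins did not share this pattern. Stmn1 (chromosome 4, 134024235 to 134029758), the ubiquitous stathmin, was at 6.03 and 5.87 FPKM in control, 4.89 and 4.26 in knockout, 3.70 and 4.08 in the full-length clones, and 5.65 and 4.82 in the deletion clones. All 8 values lay between 3.70 and 6.03 FPKM, with control highest and the full-length clones lowest. Stmn4 (chromosome 14, 66963212 to 66980517), which encodes RB3, was at 0.733 and 0.900 FPKM in control and at 1.05 and 1.45 in knockout. The full-length clones gave 0.285 and 0.115 FPKM and the deletion clones 0.0682 and 0.0599 FPKM. Stmn4 was thus the only member above 1 FPKM in any library whose level was higher in knockout than in control, and all 4 rescue clones lay below both groups. Its values rest on 13 and 16 fragments in control, 16 and 22 in knockout, 5 and 2 in the full-length clones, and 1 in each deletion clone. Stmn3 (chromosome 2, 181041164 to 181049205) had at most 3 fragments in any library and was listed at 0 in both knockout libraries.

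Gap43 was lower in knockout than in control and differed widely between the deletion clones. Gap43 (chromosome 16, 42248674 to 42340764) encodes a membrane-associated protein of growth cones. It was at 20.3 and 19.1 FPKM in control and at 2.03 and 2.09 FPKM in knockout. The full-length clones were at 5.34 and 6.79 FPKM, and the deletion clones at 1.92 and 13.8 FPKM. The control mean was 9.56-fold the knockout mean, and the full-length clones reached 30.8% of control. Deletion clone 1 lay below both knockout libraries, whereas clone 2 lay above both full-length clones and stood at 70.1% of control. The 2 deletion clones differed 7.21-fold, with 30 fragments in clone 1 and 246 in clone 2.

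Tubb3 and Map1b were lower in knockout than in control by smaller amounts, and higher again with full-length TAF4. Tubb3 (chromosome 8, 125935464 to 125945910), the beta-tubulin isotype used as a neuronal marker, was at 14.5 and 13.4 FPKM in control, 7.42 and 7.91 in knockout, 10.8 and 10.2 in the full-length clones, and 1.52 and 2.60 in the deletion clones. These groups did not overlap: both full-length clones lay between control and knockout, and both deletion clones lay below knockout. Map1b (chromosome 13, 100191419 to 100286557), which encodes a microtubule-associated protein of growing axons, was at 6.97 and 6.98 FPKM in control and at 3.19 and 3.05 in knockout. The full-length clones gave 6.75 and 6.63 FPKM, 95.9% of control on average. The deletion clones were at 2.50 and 5.47 FPKM, clone 1 below knockout and clone 2 above it. As a share of control, knockout stood at 55.1% for Tubb3 and 44.8% for Map1b.

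The neurofilament and tau genes were at or near 0 in all groups. Nefl and Nefm (chromosome 14, 68701941 to 68705794 and 68737602 to 68749428), the light and medium neurofilament subunits, were listed at 0 in all 8 libraries. Mapt (chromosome 11, 104092750 to 104193407) was between 0.0462 and 0.234 FPKM, summed over its 2 listed transcripts. The full-length clones were at 0.234 and 0.118 FPKM and the deletion clones at 0.0840 and 0.111. Control library 1, at 0.0810 FPKM, and knockout library 1, at 0.0809, lay close to deletion clone 1. Fragments were not counted for Mapt, so no order of the groups is read from these values. These 3 genes and Stmn3 stayed under 1 FPKM in every library and were not tested. The fit thus held 6 of the 10 members: Stmn1, Stmn2, Stmn4, Tubb3, Map1b and Gap43. Stmn2 passed the filter on low values only through the control libraries and Stmn4 only through the knockout libraries. Both were under 1 FPKM in every rescue clone, so no test between the rescue forms is given for them.

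Knockout against control sets cells labelled Taf4 -/- beside cells labelled Taf4 loxp/-, and it is the contrast in which Stmn2 was singled out. Each side is 1 averaged sample without replicate error. Differences are on the log2(FPKM + 1) scale, which understates those of low genes. The difference was -5.72 for Stmn2, -2.76 for Gap43, -0.95 for Map1b, -0.78 for Tubb3, -0.32 for Stmn1 and 0.31 for Stmn4. Of the 6 members 2, Stmn2 and Gap43, were at least 2-fold lower on this scale, beside 696 of 12040 genes (5.78%), and 0 were at least 2-fold higher, beside 97 (0.806%). Since the set was chosen on this contrast, nothing is read from these counts. The median of the 6 was -0.87, and that of all genes tested -0.03.

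The comparisons of each rescue form with knockout describe where the clones of that form stand. Both use the same knockout sample. With full-length TAF4, the difference from knockout was 1.20 for Gap43, 0.90 for Map1b and 0.41 for Tubb3, each higher in both clones. It was -0.02 for Stmn2, -0.19 for Stmn1 and -0.91 for Stmn4. Gap43 was the 1 member at least 2-fold higher, beside 346 genes (2.87%), and 0 members were at least 2-fold lower, beside 133 (1.10%). With the TAFH-deleted form, Tubb3 stood at -1.78 in clone 1 and -1.27 in clone 2, and Stmn4 at -1.07 and -1.08. Gap43 stood at -0.07 in clone 1 and 2.27 in clone 2, Map1b at -0.24 and 0.65, and Stmn2 at 0.08 and 0.56. For Gap43, Map1b, Stmn2 and Tubb3 clone 2 was thus the higher clone. On the mean of the clones, 2 members (Tubb3 and Stmn4) were at least 2-fold lower than knockout, beside 355 genes (2.95%), and 1 (Gap43) at least 2-fold higher, beside 88 (0.731%). With deletion clone 2 alone the counts over all genes were 597 lower and 425 higher, and with clone 1 alone 267 lower and 51 higher, with Gap43 not among the latter.

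Set against control, which shares its sample with the first contrast, the full-length clones had 2 members (Stmn2 at -5.74 and Gap43 at -1.56) at least 2-fold lower, beside 4.65% of genes, and 0 at least 2-fold higher, beside 0.183%. The deletion clones had 3 (Stmn2 at -5.40, Tubb3 at -2.31 and Gap43 at -1.66) at least 2-fold lower, beside 6.57%, and 0 at least 2-fold higher, beside 0.316%. Gap43 stood at -2.83 in deletion clone 1 and -0.48 in clone 2, and Map1b at -1.19 and -0.30, so that 4 of the 6 members were at least 2-fold lower in clone 1 and 2 of them in clone 2. Over all genes, clone 1 alone gave 950 lower and 87 higher, and clone 2 alone 945 lower and 100 higher. Map1b lay at -0.05 in the full-length clones, and quantile normalization and upper quartile scaling moved it to 0.11 and 0.02. Quantile normalization also shifted the background of these comparisons towards higher genes, except for full-length clones against knockout, where it shifted towards lower ones. It gave 449 genes at least 2-fold lower and 275 higher for knockout against control, 472 and 119 for full-length clones against control, 533 and 190 for deletion clones against control, 182 and 297 for full-length clones against knockout, and 296 and 109 for deletion clones against knockout.

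**Figure D2:**
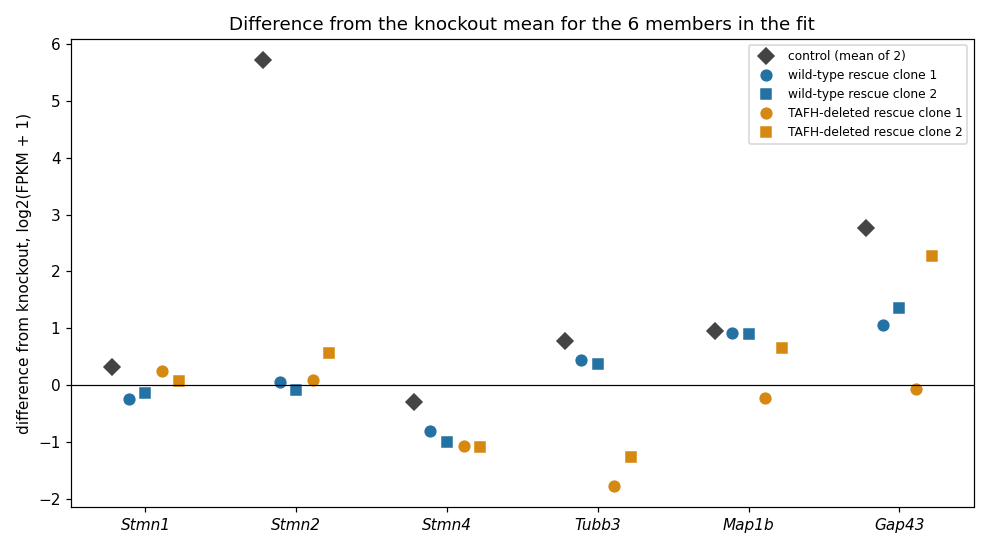
Difference from the knockout mean, log2(FPKM + 1), of the 6 members in the fit for the control mean (diamonds) and each rescue clone (circles: clone 1, squares: clone 2). For Stmn2 control stands far above knockout (knockout minus control -5.72) while all 4 clones stand within 0.56 of it, and for Tubb3 the 2 deletion clones lie below knockout and the 2 full-length clones above.

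The direct comparison of TAFH-deleted with wild-type rescue, 2 clones against 2, shares no library with the contrast that chose the set, and it was tested with limma over all 12040 genes with Benjamini-Hochberg adjustment. Of Stmn1, Tubb3, Map1b and Gap43, Tubb3 fell and was the only gene past an adjusted p of 0.05, beside 310 genes called over all (2.57%), of which 109 were higher (0.905%) and 201 lower (1.67%). Scaling to a common upper quartile called 37 higher and 162 lower instead. Calls numbered 0 without full-length clone 1 or 2, 6668 without deletion clone 1 and 4741 without deletion clone 2. Tubb3 was at 10.5 ± 0.367 FPKM (SD, n = 2) with full-length TAF4 and 2.06 ± 0.758 FPKM (SD, n = 2) without the TAFH domain. This is a 5.10-fold lower mean and a log2 difference of -1.93 ± 0.24 (SE, limma adjusted p = 0.0499), lower in 2 of 2 deletion clones. The call sits at the threshold: of 14 alternatives, it held in 5, while the difference stayed between -2.34 and -1.68. Among those 5, the 2 runs with all 8 libraries count control and knockout pairs within sampling noise as replicates. The 2 runs without a deletion clone keep only the full-length spread. The remaining hold was the filter of at least 1 FPKM in at least 4 libraries (limma adjusted p = 0.0475). The call was lost without full-length clone 1 (difference -1.90) and without full-length clone 2 (-1.965), each with a lone clone assumed to vary like the others.

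Map1b, Gap43 and Stmn1 did not pass. Map1b had a log2 difference of -0.69 ± 0.35 (SE, limma adjusted p = 0.270), and Gap43 one of -0.10 ± 0.84 (SE, limma adjusted p = 0.947). Stmn1 stood at 0.35 ± 0.18 (SE, limma adjusted p = 0.285). The clones of the forms did not overlap for Tubb3 and Map1b, which were lower with the deleted form (26.3% of all genes were), nor for Stmn1, which was higher (37.1% of all genes were), while those of Gap43 overlapped. The value for Gap43 turned on the clone: with deletion clone 2 alone its difference was 1.08, and with clone 1 alone -1.27. That of Map1b was -1.14 with deletion clone 1 alone. Log2 differences between clones had an SD over all genes of 0.576 in the deletion pair and 0.212 in the full-length pair, and a single deletion clone leaves a test with the latter spread, so no p is given for these values. Stmn2, on 4 and 1 fragments in the full-length clones and 4 and 17 in the deletion clones, differed by 0.34 on this scale, and Stmn4, on 5 and 2 and on 1 and 1, by -0.17. A p that misses the threshold does not show that the forms act alike on these genes.

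**Figure D3:**
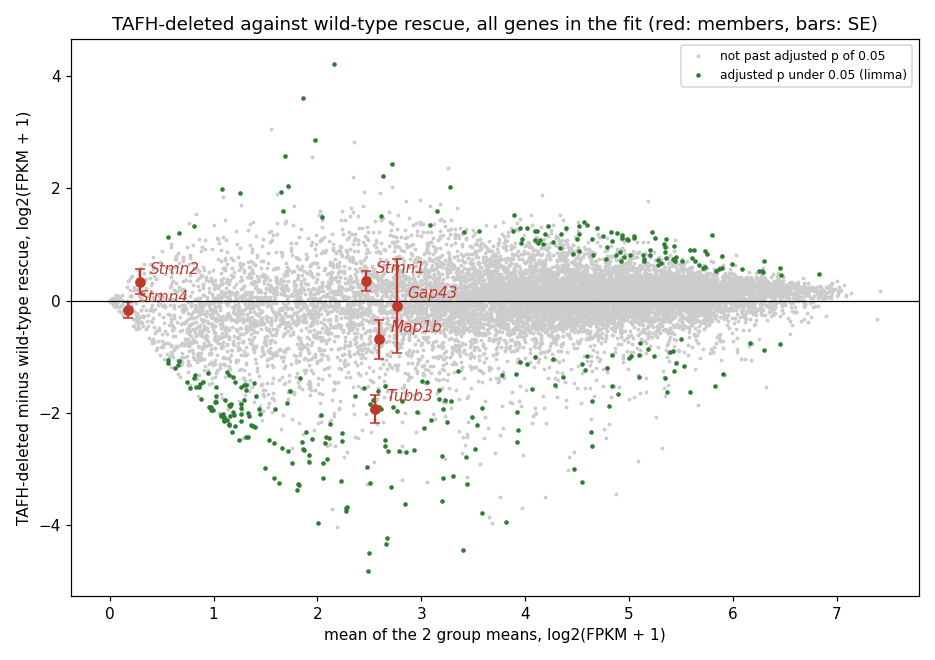
Difference between TAFH-deleted and wild-type rescue against the mean of both groups, both as log2(FPKM + 1), for the 12040 genes in the fit; green points passed an adjusted p of 0.05 in limma and red points with SE bars are the 6 members. Stmn2 and Stmn4, under 1 FPKM in all 4 clones, are drawn for their values. Tubb3 at -1.93 lies apart from the other members, and Gap43 has the widest bar, an SE of 0.84.

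The promoters that RefSeq gives for the members were read for E-boxes, the CANNTG sites bound by basic helix-loop-helix proteins such as the E proteins named in the series title. Windows (GRCm38.p6) were given for 3 of the 10 members: Tubb3, Map1b and Stmn3. Those of Tubb3 and Map1b are shown because both genes were lower in knockout and higher with full-length TAF4. They run 5′ to 3′ on the gene's strand, and the 121 bases of Tubb3 leave out what lies inside the GENCODE gene. Bases downstream of the RefSeq start were found in the transcript used here for Tubb3 and Stmn3. For Map1b they were not, so its start is uncertain. Capitals mark CANNTG.
Tubb3 (chr8:123411303-123411423, plus strand): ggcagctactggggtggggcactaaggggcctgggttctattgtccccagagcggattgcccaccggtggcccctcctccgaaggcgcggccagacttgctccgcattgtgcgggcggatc
Map1b (chr13:99516603-99516852, minus strand): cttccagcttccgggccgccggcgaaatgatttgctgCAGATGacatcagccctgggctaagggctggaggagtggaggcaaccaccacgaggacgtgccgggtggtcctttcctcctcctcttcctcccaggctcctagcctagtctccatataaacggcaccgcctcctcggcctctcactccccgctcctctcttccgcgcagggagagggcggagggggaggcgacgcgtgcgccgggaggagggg
In the 250 bases before the RefSeq start, on both strands, Tubb3 had 0 matches to CANNTG and Map1b 1, CAGATG, as did Stmn3 (1). Of 32851 promoter windows of that length 66.2% hold CANNTG. The forms CAGCTG (4271 windows) and CAGGTG or CACCTG (5657 windows), which are among the CANNTG matches, were absent from all 3 windows, and TATAAA (12.4% of windows) occurred 1 time, in Map1b.

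Genes near Stmn2 on chromosome 3 were listed with it to show how far along the chromosome its pattern reached. They were the 3 nearest genes of the table on either side, chosen after values were seen. Hey1, a Notch-responsive repressor 102 kilobases downstream, was at 11.4 and 10.8 FPKM in control and 0.506 and 0.371 in knockout. In the full-length clones Hey1 was at 1.79 and 1.03 FPKM, and in the deletion clones at 0.385 and 5.88. Il7, the cytokine interleukin 7, lies 896 kilobases upstream and was at 14.1 and 13.97 FPKM in control, 1.61 and 1.31 in knockout, 1.68 and 1.35 in the full-length clones, and 1.70 and 16.03 in the deletion clones. Both were thus high in control and, unlike Stmn2, high also in deletion clone 2. Mrps28, a mitochondrial ribosomal protein gene 241 kilobases downstream, was at 42.0 and 40.3 FPKM in control, 27.0 and 23.3 in knockout, 24.1 and 23.1 in the full-length clones, and 28.2 and 44.1 in the deletion clones, with clone 2 again near control. Gm6194, the nearest listed gene at 46.4 kilobases, lay between 2.00 and 3.03 FPKM in all libraries. Tpd52 lay between 5.33 and 15.1 FPKM, highest in deletion clone 2, and 1700010I02Rik was listed at 0.

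**Figure D4:**
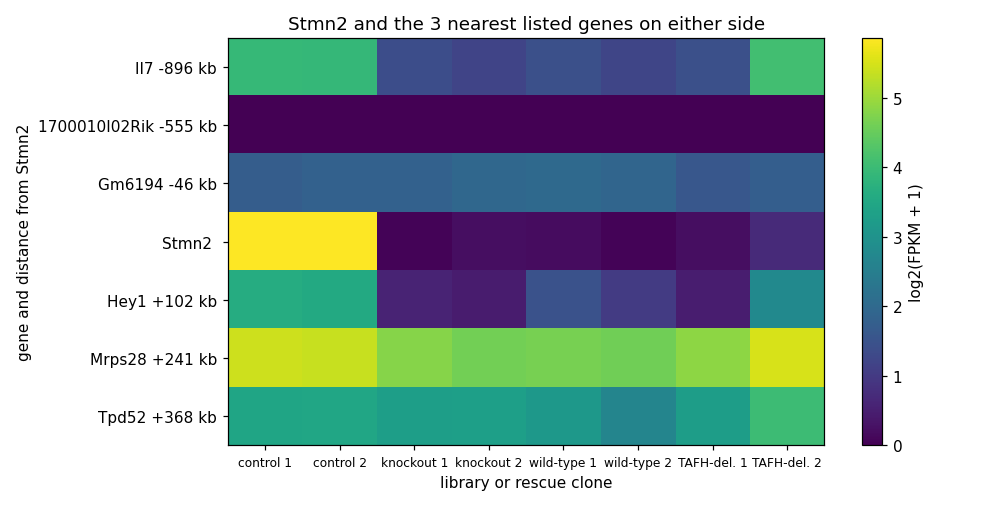
Levels, as log2(FPKM + 1) in colour, of Stmn2 and the 3 nearest listed genes on either side in the 8 libraries; rows follow their order on chromosome 3, with the distance from Stmn2 in kilobases (minus: upstream). Stmn2, Hey1 and Il7 are high in control and low in knockout, and Hey1 and Il7 are high again in deletion clone 2, at 5.88 and 16.03 FPKM.

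Genes whose pattern over the 6 samples was most like that of Stmn2 were ranked by Pearson correlation of log2(FPKM + 1), among 597 genes with a range of at least 2 on that scale and at least 5 FPKM in the highest sample. They were Sprr1a (r = 0.999), Tmem266 (r = 0.997), Tbx20 (r = 0.996), Gpc6 (r = 0.995) and Rhbdf2 (r = 0.995). All 5 were high in control alone: Gpc6, a cell-surface heparan sulphate proteoglycan, was at 11.9 and 11.4 FPKM in control and at most 0.0103 in any other library. Tbx20, a T-box transcription factor, was at 9.27 and 9.34 FPKM in control and at most 0.0503 elsewhere. With 6 samples of shared libraries, these r values describe 1 high sample. The genes most like Gap43 were Enpp1, Pparg, Tnfrsf11b, Cgref1 and Hey1, with r from 0.953 to 0.972. Pparg, a nuclear receptor of fat cells, was at 23.9 and 23.4 FPKM in control, 4.49 and 3.71 in knockout, 8.68 and 6.33 in the full-length clones, and 2.96 and 19.5 in the deletion clones. The genes most like Tubb3 were Tinagl1, Tmem159, Cyba, Dio3 and Gpx7, with r from 0.975 to 0.995. Dio3, a deiodinase that inactivates thyroid hormone, was at 16.9 and 18.6 FPKM in control and at 0.169 and 0 in the deletion clones.

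The wider cytoskeleton was described by gene lists. Of 12 tubulins 10 were tested, and unlike Tubb3, 9 of the 10 were higher in TAFH-deleted than in wild-type rescue, though 0 passed limma's test, with a median log2 difference of 0.26 (0.06 for all genes). Upper quartile scaling gave 8 of 10 and quantile normalization 9 of 10. Over all genes, both deletion clones lay above both full-length clones in 37.1% and below both in 26.3%. The highest tubulin in listed FPKM, Tubb5, was at 88.1 and 89.7 FPKM in the full-length clones and 109 and 107 in the deletion clones, and Tubb6 at 79.5 and 79.0 and at 92.3 and 102. Sequence that the tubulins of this list share with other genes was not examined, so their FPKM may be uncertain. Against control, 9 of the 10 tubulins stood higher in knockout (median 0.18, and -0.03 for all genes), 0 of them at least 2-fold. After quantile normalization it was 8 of 10. In the same contrast 6 of the 7 tested fibroblast markers stood higher (median 0.19), and 2 of 7 after quantile normalization (median -0.04). Their part in the tubulin result was not tested. Implied totals, in the unit given above, were 17.3 in both control libraries and 14.8 in both knockout libraries. They were 17.1 and 16.9 in the full-length clones and 14.3 and 16.2 in the deletion clones. A ceiling of 1 read per position would lie at a lower FPKM in a deeper library. Whether such a ceiling adds to the higher tubulin values in knockout or in the deletion clones was not tested. The same holds for the higher fibroblast marker values in knockout. Among 21 microtubule-associated proteins 19 were tested, and 1 rose and 0 fell, beside 0.905% and 1.67% of all genes. Map6, a protein that stabilizes microtubules against cold, was at 26.0 and 28.9 FPKM with full-length TAF4 and 51.4 and 61.3 FPKM with the deletion. This is a log2 difference of 1.01 ± 0.12 (SE, limma adjusted p = 0.0499). That call too sat at the threshold and held in 5 of 14 alternatives, the same 5 as for Tubb3. Only the filter of at least 1 FPKM in at least 4 libraries (limma adjusted p = 0.0475) kept all clones and did not count control and knockout pairs as replicates. The call was lost without full-length clone 1 (difference 0.94) and without full-length clone 2 (1.08). The list's median was 0.05, and -0.06 after quantile normalization.

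No gene of the remaining lists passed the test between the forms. Of 9 intermediate filament genes and partners 6 were tested, 4 lower and 2 higher (median -0.38). Vim, the vimentin of mesenchymal cells, was between 120 and 146 FPKM in all libraries and Plec, which encodes the linker protein plectin, between 15.7 and 25.9, while Nefh, Ina and Prph, the neuronal filament genes of the list, stayed at or under 0.332 FPKM. The values of Vim are among the highest printed here, and whether a ceiling of 1 read per position limits them was not tested. Of 15 growth cone genes 11 were tested, 6 lower and 5 higher (median -0.03), with Marcks between 57.3 and 75.8 FPKM and Basp1 between 55.8 and 77.4. Of 11 kinases and phosphatases that act on stathmins or tau 10 were tested (median 0.08), with Ppp2ca between 69.7 and 79.8 FPKM and Mark3 between 36.0 and 43.3. Mark1, among the 10, was at 0 FPKM in every rescue clone, so its outcome between the forms was fixed. All 10 genes of REST, the repressor of neuronal genes in other cells, and its corepressors were tested, 4 lower and 6 higher (median 0.04), with Hdac2 between 72.6 and 87.0 FPKM and Ehmt2 between 52.2 and 60.7. Rest itself was at 17.3 and 17.9 FPKM in control and 12.6 and 13.6 in knockout, and 0 of the 10 differed at least 2-fold between these.

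**Figure D5:**
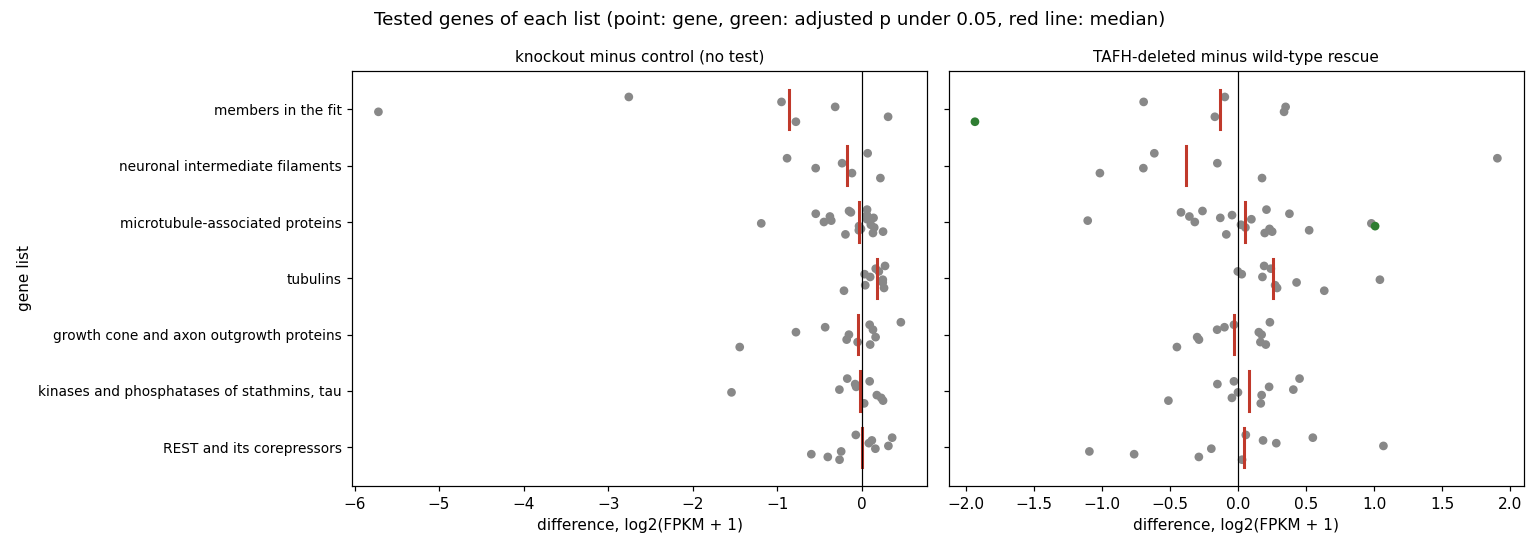
Differences on the log2(FPKM + 1) scale for the genes of each list in the fit, with the members on top, knockout minus control (left, no test) and TAFH-deleted minus wild-type rescue (right); each point is a gene, green passed an adjusted p of 0.05 in limma and the red line is the list's median. Tubb3 at -1.93 and Map6 at 1.01 are the called genes, and the tubulin list lies at a median of 0.18 on the left and 0.26 on the right.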

How the data were processed

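Libraries of 8 fibroblast samples followed an Illumina mRNA-Seq protocol, per the labels' protocols. Per the submitters' processing notes, the authors used CASAVA 1.8, TopHat, Cufflinks and Cuffdiff on mm9; other versions and options are not given in the sources used here. The authors deposited FPKM values for 30028 RefSeq transcripts, with transcript lengths in bases. The deposited p-values and q-values were not used. Accessions were matched to GRCm38.p6 symbols (96.1% matched), and FPKM were summed per gene and chromosome. Locus starts were taken to count from 0, since the shortest span equals the transcript length, and are printed counted from 1.

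In single-transcript genes of at least 1000 bases with a locus of their own, low FPKM values were whole multiples of 1 fragment after 204.1 bases were subtracted from transcript length, for 100% of values in each library at a tolerance of 0.05 fragments. This gave implied totals, fragments, and the chi-square of library pairs over genes with 2 to 7 fragments. Fragments are not known to be independent molecules.

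The test was limma-trend (limma 3.58.1, R 4.3.3) on log2(FPKM + 1), two-sided, for genes that reached 1 FPKM in 2 or more libraries and had a longest transcript of at least 300 bases, with all groups in 1 fit of 6 samples, 2 residual and 2.15 prior degrees of freedom, and Benjamini-Hochberg adjustment at 0.05. The spread comes from the rescue clones alone, and, with separate cultures not stated, p-values reflect only variation among these samples, which may be technical. Members, lists and tests were chosen with earlier results of these data known. The named genes are all 10 members, per list up to 4 called genes (with none called, the 2 most abundant), and the 5 genes most correlated with a member; neighbours of Stmn2, and other genes named for their values, were chosen after the values were seen. Windows of 50 bases were compared on both strands with all GENCODE M21 transcripts. Alternatives varied the pseudocount, filters, scaling, samples and clone block.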

Additional observations from a re-analysis of the deposited data

Results flagged for a closer look

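Among the members and list genes tested, 2 were called between the TAF4 forms by the test of the difference itself. Genes in the fit numbered 6 for the members and 6, 19, 10, 11, 10 and 10 for the lists other than cell type markers. Stmn2, Stmn4 and Mark1 among them were under 1 FPKM in every rescue clone. Over all genes 310 of 12040 (2.57%) were called, so nothing is read from the count. Tubb3 stood above knockout in both full-length clones and below it in both deletion clones, a difference between the forms of -1.93 on the log2(FPKM + 1) scale. Map6 stood the other way, below knockout in both full-length clones and above it in both deletion clones, with a difference of 1.01. Both calls lie at the threshold (limma adjusted p = 0.0499 for each).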

How the results depend on the processing

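The number of genes called between TAFH-deleted and wild-type rescue depended on the processing, and the cause was not tested. Against 310, limma called 126 with a pseudocount of 0.1, 106 with short transcripts kept, 174 under quantile normalization, 199 with upper quartile scaling and 4561 with all 8 libraries as samples. Without a filter on low values it called 0 of 17938 genes, with 4344 at an unadjusted p under 0.05. With the replicate number as a block over all 8 libraries it called 3917, against 4561 in the same libraries without the block, and Tubb3 was called in both. Both runs count control and knockout pairs within sampling noise as replicates, so no p is given for them. The clone numbers are labels only: differences between clones 1 and 2 of the 2 forms correlated at -0.06 over genes. Leaving out 1 rescue clone gave 0 to 6668 calls. The 0 came without full-length clone 1 or 2, with 917 and 1028 genes at an unadjusted p under 0.05. Among members, quantile normalization turned Stmn4 to 0.0885 and Gap43 to 0.0235, and Gap43 also changed sign without full-length clone 2 (0.0523) and without deletion clone 1 (1.08), over a range of -1.27 to 1.08. Stmn1, Tubb3, Map1b and Map6 had the same direction in every alternative run. The count of members at least 2-fold lower in knockout was 2, and 3 with a pseudocount of 0.1. Depth limits Stmn2 outside control, Stmn3 and Stmn4, whose values rest on 0 to 22 fragments.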

Other observations

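A few genes of the fixed lists stood apart in knockout against control and were singled out after their values were seen. Uchl1, a ubiquitin hydrolase abundant in neurons, was at 53.6 and 52.9 FPKM in control, 19.1 and 18.7 in knockout, 25.7 and 24.6 in the full-length clones, and 9.81 and 32.9 in the deletion clones. Map2, a microtubule-associated protein of dendrites, was at 18.0 and 18.4 FPKM in control and 7.24 and 7.58 in knockout. In the rescue clones Map2 was at 9.08 and 8.90 FPKM with full-length TAF4 and at 16.3 and 21.4 FPKM with the deleted form, a difference that did not pass (limma adjusted p = 0.0744). Mark1, a kinase that phosphorylates microtubule-associated proteins, was at 2.03 and 1.84 FPKM in control and at or under 0.0155 FPKM in the other 6 libraries.

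Of 8 glial and neural crest markers 2 were tested, and Sox2, a transcription factor of neural progenitors, made up most of their level. Sox2 was at 12.4 and 11.1 FPKM in control, 4.74 and 4.62 in knockout, 6.66 and 8.43 in the full-length clones, and 6.01 and 20.2 in the deletion clones. As for Gap43, deletion clone 2 was the highest of the rescue clones. Nes, an intermediate filament gene of progenitors, was at 8.03 and 7.51 FPKM in control, 3.53 and 3.96 in knockout, 0.584 and 0.579 with full-length TAF4, and 3.83 and 6.26 with the deleted form. Muscle markers summed to at most 0.483 FPKM and epithelial markers to at most 0.248 FPKM in any library, while the blood marker Cd68 was between 1.05 and 3.45 FPKM.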
